A study of Mus musculus with 3 samples.

Results

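Accessible chromatin was examined at 10 circadian clock genes in dopaminergic neurons (DNs) of the mouse midbrain. The genes were *Arntl* and *Clock* (the positive arm of the clock), *Per1*, *Per2*, *Per3*, *Cry1* and *Cry2* (the negative arm), *Nr1d1* and *Bhlhe41* (an accessory loop) and *Dbp* (an output factor). Every accessible peak that overlapped the GENCODE M21 body of one of these genes, or lay within 20 kb of it, was taken. This gave 120 of the 55326 peaks of the DN list, and each of the 10 genes had at least 3. All positions are on mm10.

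The peaks came from single-nucleus ATAC-seq, in which a transposase cuts and tags open chromatin and each fragment carries the barcode of its nucleus. Nuclei were isolated from the midbrain ventral tegmental area (VTA) of male C57Bl/6Nl mice, aged 7 weeks for the first library and 9 weeks for the second, and the authors kept the cluster of DNs. Both libraries were pooled by the authors in 1 list of positions, without a height, a score or a count for any peak, so that no value here has a spread between animals and no test was made. The third sample of the series, bulk ATAC-seq of male mouse embryonic stem cells (line 46C), was not analysed here. The time of day at which tissue was taken was not given in the sources used here. Whether both libraries were taken at 1 phase of the clock is therefore not known, and the pooled list shows no change over its cycle.

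The list was checked against marker genes of DNs. All 8 DN markers, among them *Th*, which makes the rate-limiting enzyme of dopamine synthesis, had a peak within 1 kb of a transcription start site (TSS), as did 56.9% of all protein-coding genes. The authors had chosen the cluster by *Th* and checked it by *Slc6a3*, *Lmx1b* and *Foxa2*, so that 4 of these 8 are no independent check of the nuclei. Of 13 markers of other cell types, 2 did, the GABAergic marker *Slc32a1* and the glutamatergic marker *Slc17a6*. None of the 9 glial markers had such a promoter peak, although 3 had a peak within the gene body. Of all 13 markers of other cell types, 6 had a peak in the body, as did 13869 of 21755 protein-coding genes. The part of other cells in the peaks of clock genes was not tested. Because peaks were called on pooled nuclei, accessibility in few nuclei and weak accessibility in many cannot be told apart.

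The mammalian clock is a transcriptional feedback loop that runs in most cells, neurons included. CLOCK and BMAL1, the product of *Arntl*, bind E-boxes as a heterodimer and switch on the *Per* and *Cry* genes, whose proteins return to the nucleus and inhibit that heterodimer. REV-ERB-alpha, the product of *Nr1d1*, competes with ROR activators at ROR elements and represses *Arntl*. DBP activates transcription through D-boxes, and BHLHE41 competes for E-boxes.

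Peaks and genomic sequence around the genes were therefore read for short consensus sequences on both strands. These were the E-box CACGTG, the E-box-like element CACGTT, the D-box TTATGTAA or TTACGTAA, the ROR element ANTAGGTCA, in which N is any base, and the cAMP response element TGACGTCA, which is bound by CREB. CAGCTG, an E-box with another centre that is used by other basic helix-loop-helix factors, was read for comparison. It holds no CG, unlike CACGTG, so it is no control for CpG content. The E-box, the E-box-like element and the E-box with another centre differ in their letters, so that no match was counted under more than 1 of them. Matches are letters in the reference sequence, and no binding was measured.

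Clock genes differed widely in the number of accessible peaks. *Cry2* had 26 peaks, *Nr1d1* had 24, *Per1* had 20 and *Dbp* had 17. *Per3* followed with 8, *Arntl* with 7, *Per2* with 6, *Bhlhe41* with 5, *Cry1* with 4 and *Clock* with 3. The 4 genes at the top held 87 of the 120 peaks (72.5%), and no member had between 9 and 16. Whether neighbours in this order differ cannot be assessed without a spread over samples. The median was 7.5 peaks, against 2 peaks for 21755 protein-coding genes counted in the same way (quartiles 1 and 5). Clock genes were longer, with a median of 35.7 kb against 17.4 kb, and beside genes of similar length the comparison median was 3 peaks. A count of 17 or more was found for 4 of 10 clock genes and for 3.01% of all protein-coding genes. The cutoff of 17 is the count of *Dbp*, so it was taken from these same counts and the shares are a description only. The 10 genes were also chosen with earlier results of these data known. All 10 clock genes had at least 1 peak, as did 76.6% of protein-coding genes.

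**Figure D1:**
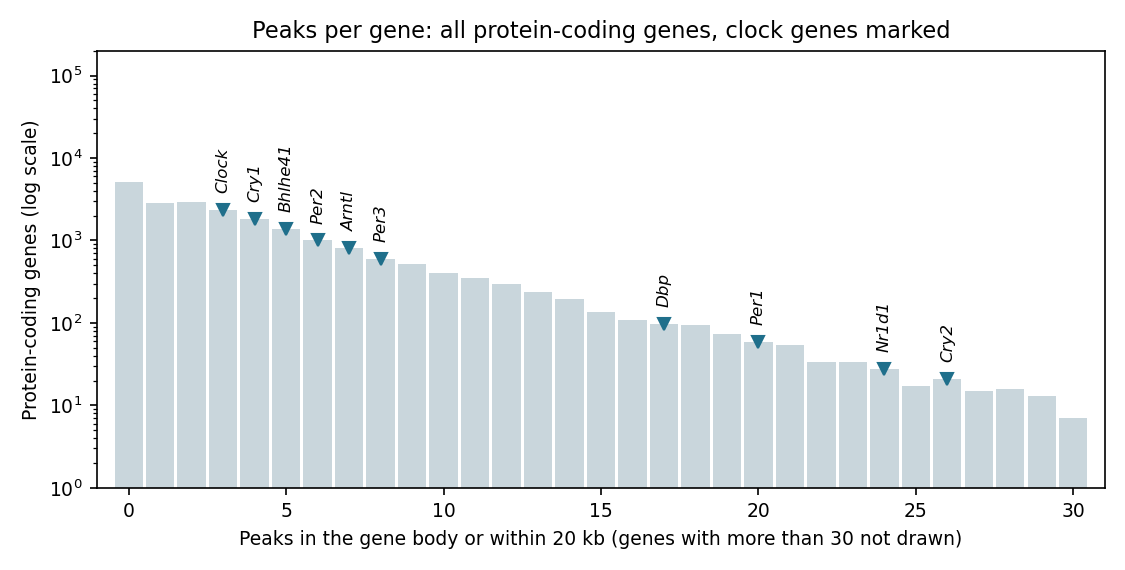
Number of protein-coding genes (bars, log scale) with each number of DN peaks in the gene body or within 20 kb, with the 10 clock genes marked by triangles. *Clock* with 3 peaks sits near the median of all genes, whereas *Dbp*, *Per1*, *Nr1d1* and *Cry2* sit in a tail. That tail, counted from the 17 peaks of *Dbp* upward, holds 3.01% of genes.

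The 4 genes with most peaks also had the most per kb of gene body and flanks. On this measure, *Nr1d1* had 0.506 peaks, *Dbp* 0.377, *Cry2* 0.369 and *Per1* 0.365. *Bhlhe41* had 0.106 and *Per3* 0.0987 peaks per kb. *Clock* had 0.0222 peaks per kb, below the median of 0.0324 over all protein-coding genes. Peaks covered 52.8% of the body of *Dbp* and 52.5% of that of *Nr1d1*, 20.6% of *Per1*, 18.6% of *Cry2* and 17.9% of *Bhlhe41*. In the remaining 5 genes they covered between 1.28% (*Clock*) and 5.2% (*Per3*), against a median of 0.991% over all protein-coding genes. Per kb of gene body alone, *Bhlhe41* had 0.41 peaks, more than *Cry2* with 0.395.

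By position, 58 of the 120 peaks (48.3%) overlapped the body of the clock gene. When each peak was placed by its centre, 20 were at the promoter, 30 in introns, 9 in coding exons, 2 in exons of untranslated regions (UTRs), 17 upstream and 42 downstream. The nearest TSS was the clock gene's own for 66 peaks (55%) and another protein-coding gene's for 54 (45%). Of all 120 peaks, 19 lay within 1 kb of the TSS of another gene. Counting peaks by nearest TSS lowered *Cry2* to 12, *Nr1d1* to 13, *Per1* to 8 and *Dbp* to 8. They still had more peaks than the other 6 genes, which then had between 2 and 6. Counting only peaks over the gene body, the order changed: *Cry2* had 12 and *Nr1d1* 9, but *Arntl* had 7, as many as *Per1* and more than *Dbp* with 6. With flanks of 10 kb, *Cry2* had 21 peaks, *Dbp* 16, *Nr1d1* 13 and *Per1* 13, and with 50 kb *Nr1d1* had 38, *Per1* 37, *Cry2* 32 and *Dbp* 20. The order among the 4 genes thus depended on the flank, while the other 6 had fewer peaks than each of them at both flanks.

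**Figure D2:**
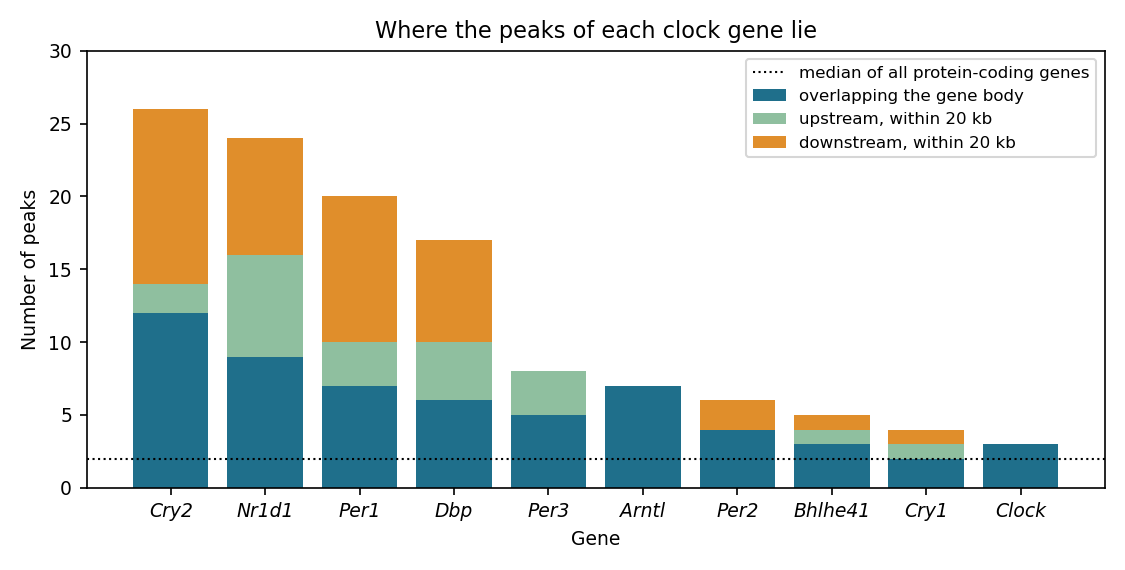
Number of DN peaks of each clock gene (bars), split into peaks that overlap the gene body and peaks up to 20 kb upstream or downstream; the dotted line is the median of all protein-coding genes, 2 peaks. *Cry2*, *Nr1d1*, *Per1* and *Dbp* have 14, 15, 13 and 11 of their peaks in the flanks, whereas all 7 peaks of *Arntl* and all 3 of *Clock* overlap the gene body.

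**Figure D3:**
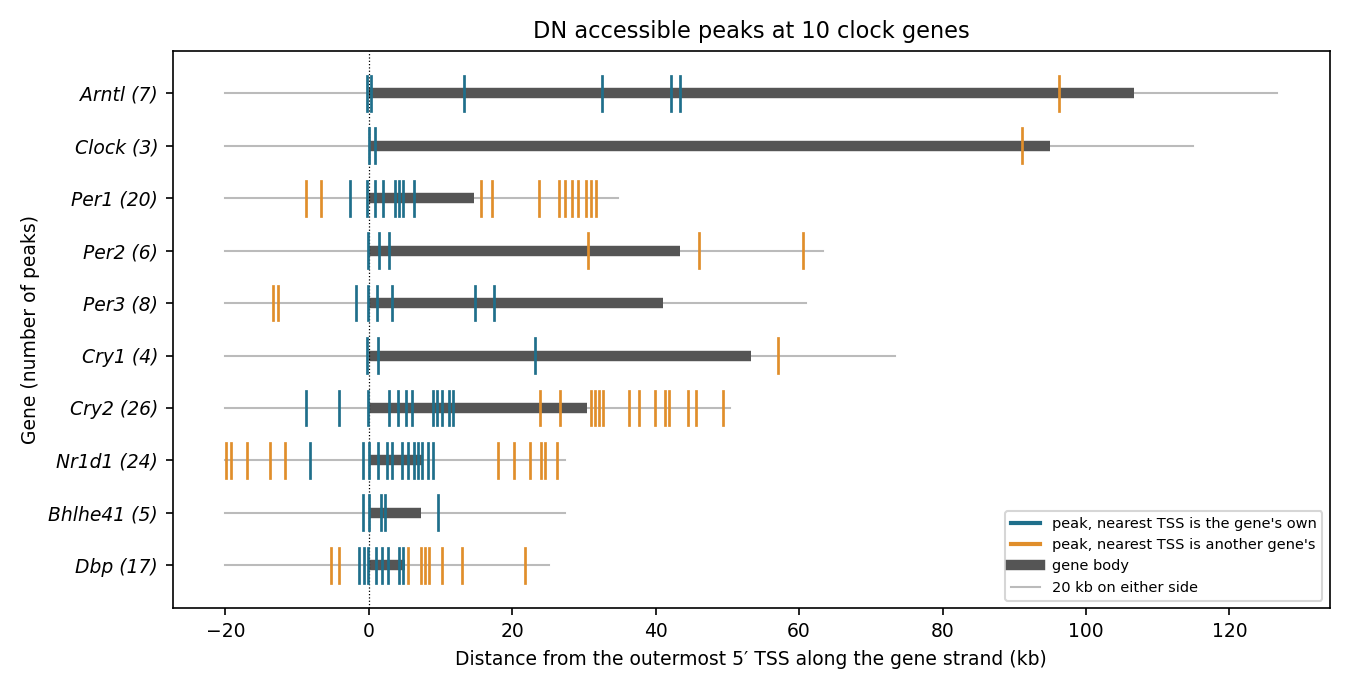
Position of each of the 120 DN peaks (vertical ticks) along each clock gene in kb from its outermost TSS, in the direction of transcription; thick bars are gene bodies and thin lines the 20 kb on either side. Ticks in blue are nearest to the TSS of the clock gene and those in orange to that of another gene, and the long bodies of *Arntl* and *Clock* hold 1 tick each beyond 50 kb from the TSS.

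All 10 clock genes had a peak within 1 kb of a TSS, as did 56.9% of protein-coding genes (95% exact binomial interval 56.2 to 57.5%). The outermost TSS itself lay inside a peak in 9 of the 10, against 43.7% of protein-coding genes. The exception was *Cry1*, whose promoter peak began 32 bp upstream of the TSS. Peaks over or beside these TSSs spanned a wide range of base composition. GC content was 77.2% for *Clock*, 73.2% for *Per3*, 70.2% for *Cry2*, 70% for *Cry1* and 68.6% for *Per2*, and the ratio of observed to expected CpG lay between 0.921 and 1.06 in these 5 peaks. The peak at *Nr1d1* had 56.2% GC and a CpG ratio of 0.516, that at the outermost TSS of *Per1* 57.2% and 0.7, and that at *Dbp* 59.6% and 0.656. A peak over a *Per1* TSS inside the gene had 59.4% and 0.499. All DN peaks within 1 kb of a TSS had a median of 62.2% GC and a CpG ratio of 0.754. The peak over the outermost TSS of *Arntl*, with 61.6% GC and a CpG ratio of 0.751, lay close to these medians, while the second *Arntl* promoter peak had 76.6% and 0.9. The peak over the TSS of *Bhlhe41* had 68.2% and 0.897.

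The 2 genes of the positive arm had 10 peaks in all. *Arntl* (chr7:113207465-113314126, plus strand), which encodes BMAL1, had 7 peaks over a body of 107 kb, 2 at the promoter and 5 in introns. Among protein-coding genes of similar length, which are those whose length is within a factor of 0.8 of it in either direction, 16.7% had as many peaks in the body. *Clock* (chr5:76209868-76304792, minus strand), which encodes the partner of BMAL1, had 3 peaks, 2 at the promoter and 1 in a UTR exon at the far end, and 46.3% of genes of similar length had as many. Neither gene had a CACGTG E-box in any peak, although their windows of body and flanks held 15 and 13 of these sequences. *Clock* had the E-box-like element in 2 of its 3 peaks.

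The ROR element of the *Arntl* promoter fell between peaks. It was centred 78 bp inside the gene, in a gap of 94 bp between the 2 promoter peaks, 22 bp from the nearer one. Since all peaks of the list are 500 bp wide and do not overlap, a gap under 500 bp could not hold a peak of its own, and the lack of a call there is no measure of accessibility. The *Arntl* window is the longest of the 10 and held 11 ROR elements, the most of any, and 1 of them lay in a peak, in an intron. Both are shown on the strand of the gene, with the ROR element in capitals (its reverse complement in the intron), the first at chr7:113207528-113207557 and the second at chr7:113250930-113250978.
*Arntl* promoter, between peaks: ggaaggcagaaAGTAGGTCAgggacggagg
*Arntl* intron, in a peak: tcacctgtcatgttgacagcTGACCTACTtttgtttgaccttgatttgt

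The 3 *Per* genes, whose proteins carry the inhibitory signal of the loop, ran from 20 peaks to 6. *Per1* (chr11:69095217-69109960, plus strand), which light and neuronal activity induce in many neurons, had 7 peaks over its body of 14.7 kb, 3 upstream and 10 downstream. Only 2.22% of genes of similar length had as many in the body, and 1.79% of all protein-coding genes had as many in body and flanks. Of its 20 peaks, 8 were nearest to a *Per1* TSS. The others were nearest to *Vamp2* (2), which encodes a synaptic vesicle protein, *Hes7* (3), 9130213A22Rik (3) and *Aloxe3* (4).

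The peak over the outermost *Per1* TSS held 2 CACGTG E-boxes, at -332 and -148 bp. A further E-box lay in a peak over a *Per1* TSS inside the gene, and a cAMP response element in an intronic peak at +1988 bp. This was the only cAMP response element in the *Per1* window. These stretches are printed because they place E-box sequences and a cAMP response element sequence of *Per1* inside DN peaks. The elements are in capitals, at chr11:69094863-69094908, chr11:69095047-69095092, chr11:69098763-69098808 and chr11:69097182-69097229, on the plus strand.
*Per1* E-box at -332 bp: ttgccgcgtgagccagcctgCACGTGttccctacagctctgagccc
*Per1* E-box at -148 bp: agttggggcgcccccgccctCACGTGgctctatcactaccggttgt
*Per1* E-box at +3568 bp: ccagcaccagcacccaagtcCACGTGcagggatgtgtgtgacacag
*Per1* cAMP response element at +1988 bp: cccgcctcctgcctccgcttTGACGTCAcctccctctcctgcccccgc

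*Per2* (chr1:91415982-91459324, minus strand) had 6 peaks and *Per3* (chr4:151003652-151044665, minus strand) had 8. In *Per2*, 16.3% of genes of similar length had as many peaks in the body, and in *Per3* 10.6%. The *Per2* peaks comprised 1 at the promoter, 3 in introns and 2 downstream, at the promoters of *Hes6* and *Ilkap*. All 8 *Per3* peaks lay within the body of *Camta1*, and the 2 farthest upstream were at the promoter of *Vamp3*. No CACGTG was found in the promoter peak of either gene. The only peak of each gene with a CACGTG was intronic, 30266 bp into *Per2* and 14602 bp into *Per3*.

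Both promoter peaks held D-boxes. *Per2* had 1 D-box at -122 bp, next to an E-box-like element 8 bp inside the gene, and *Per3* had 2 D-boxes, centred on -178 bp. A second *Per2* D-box, at +226 bp, lay outside the peak. They are shown on the strand of the gene with the matches in capitals, at chr1:91459422-91459469, chr1:91459302-91459331 and chr4:151044796-151044890.
*Per2* D-box: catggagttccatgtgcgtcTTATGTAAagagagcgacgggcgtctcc
*Per2* E-box-like element: agcgcgcgcggtCACGTTttccactatgtg
*Per3* twin D-boxes: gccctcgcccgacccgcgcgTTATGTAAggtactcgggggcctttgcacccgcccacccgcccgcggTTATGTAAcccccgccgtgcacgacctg

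The *Cry* genes, which encode the repressors that bind CLOCK and BMAL1 directly, differed widely in the number of peaks. *Cry1* (chr10:85131700-85185064, minus strand) had 4 peaks and *Cry2* (chr2:92403646-92434043, minus strand) had 26. As many peaks in the body were found in 50.6% of genes of the length of *Cry1* and in 0.743% of those of the length of *Cry2*. *Cry1* had 1 peak just upstream of its TSS, 2 in introns and 1 at the promoter of *Mterf2*.

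Few as they were, the *Cry1* peaks held several elements. The promoter peak contained an E-box-like element and a CACGTG E-box 13 bp apart, centred on -57 bp, and the intronic peak 23122 bp into the gene contained 2 ROR elements in opposite orientation. These were the only 2 ROR elements in the *Cry1* window, of which peaks covered 2.14%. The stretches lie at chr10:85185089-85185153 and chr10:85161891-85161992 and are printed on the strand of the gene, with all elements in capitals. The first in the promoter stretch, AACGTG, is the E-box-like element read on the other strand.
*Cry1* promoter: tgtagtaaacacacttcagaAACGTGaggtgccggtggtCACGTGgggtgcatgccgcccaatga
*Cry1* intron: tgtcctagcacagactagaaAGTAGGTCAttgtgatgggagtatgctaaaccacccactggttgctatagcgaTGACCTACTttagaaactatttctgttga

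*Cry2* had 12 peaks over its body, 10 of them with centres in introns, 2 upstream and 12 downstream. Its downstream neighbour *Mapk8ip1*, which encodes a scaffold protein of JNK signalling abundant in neurons, had the nearest TSS for 13 of the 26 peaks. The promoter peak held an E-box-like element at -190 bp and no CACGTG. An intronic peak about 10 kb into the gene held 2 CACGTG E-boxes, and 2 further peaks with a CACGTG lay downstream, within *Mapk8ip1*. D-boxes were found in 2 intronic peaks, which together hold 2 of the 3 D-boxes of the window. The intronic E-boxes are shown on the strand of the gene, at chr2:92423847-92423945.
*Cry2* intron: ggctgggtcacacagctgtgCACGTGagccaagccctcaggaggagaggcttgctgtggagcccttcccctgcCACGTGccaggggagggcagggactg

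*Nr1d1* (chr11:98767932-98775333, minus strand), which encodes the repressor REV-ERB-alpha, had the most peaks per kb of the 10 genes. It had 9 peaks over a body of 7.4 kb, 7 upstream and 8 downstream, and 0.128% of genes of similar length had as many in the body. The median distance between neighbouring peak centres was 1344 bp. *Nr1d1* ends within *Thra*, which encodes a thyroid hormone receptor and is transcribed from the other strand, and the bodies overlap by 1075 bp. *Thra* had the nearest TSS for 6 of the 24 peaks and *Msl1* for 5. The farthest peak inside the 20-kb limit was 19590 bp from the gene body and the nearest outside it 20064 bp.

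*Nr1d1* also had the most E-boxes in peaks. CACGTG was found 9 times in 6 of its peaks, and 9 of the 15 CACGTG sequences of its window (60%) lay in peaks, which cover 25.1% of it. An intronic peak held 3 of them, 2 of these 9 bp apart, together with a D-box. The peak over the TSS held an E-box-like element at -70 bp. A CACGTG and a CACGTT 7 bp apart, centred on -358 bp, lay in a gap of 234 bp between the 2 promoter peaks, 70 bp from the nearer one, where again no further peak could be placed. They are shown on the strand of the gene, at chr11:98773839-98773899, chr11:98774060-98774179 and chr11:98775662-98775720, with E-boxes, the E-box-like element and the D-box (TTACATAA, the reverse complement) in capitals.
*Nr1d1* intron, E-box pair: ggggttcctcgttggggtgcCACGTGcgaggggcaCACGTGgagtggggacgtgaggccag
*Nr1d1* intron, E-box and D-box: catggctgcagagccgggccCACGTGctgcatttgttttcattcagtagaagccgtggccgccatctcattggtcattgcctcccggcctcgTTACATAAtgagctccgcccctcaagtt
*Nr1d1* upstream, between peaks: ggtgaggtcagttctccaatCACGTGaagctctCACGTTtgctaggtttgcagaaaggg

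*Bhlhe41* (chr6:145858243-145865558, minus strand), which encodes the repressor DEC2, had 5 peaks, and all 5 were nearest to its own TSS. Its body of 7.32 kb held 3 peaks, and 11.3% of genes of similar length had as many. It had few peaks but many E-boxes in them. CACGTG was found 5 times in 3 of the 5 peaks, and 4 of the 5 had CACGTG or CACGTT. Of 12 CACGTG sequences in the window, 5 (41.7%) lay in peaks, which cover 5.28% of it. One was 12 bp upstream of the TSS, and 3 lay in the downstream peak, 2 of them 20 bp apart. They are shown on the strand of the gene, at chr6:145865559-145865593, chr6:145855845-145855916 and chr6:145855692-145855737.
*Bhlhe41* E-box at -12 bp: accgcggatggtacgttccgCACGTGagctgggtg
*Bhlhe41* downstream E-box pair: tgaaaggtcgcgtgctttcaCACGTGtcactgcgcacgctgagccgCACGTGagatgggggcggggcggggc
*Bhlhe41* downstream single E-box: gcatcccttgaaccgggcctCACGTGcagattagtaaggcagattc

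*Dbp* (chr7:45705088-45710203, plus strand) encodes a PAR basic leucine zipper activator and is a classic direct target of CLOCK and BMAL1. It had 6 peaks over 5.12 kb, 4 upstream and 7 downstream, and 1.02% of genes of similar length had as many in the body. Its neighbours are close, and 5 of its 17 peaks were nearest to *Sphk2*, whose body overlaps that of *Dbp* by 737 bp, and 2 to *Car11*. No CACGTG was found in the 3 promoter peaks. An intronic peak held 2 CACGTG and 1 CACGTT, and peaks within *Sphk2* held 3 more CACGTG. The intronic stretch is shown on the plus strand, at chr7:45707692-45707850.
*Dbp* intron: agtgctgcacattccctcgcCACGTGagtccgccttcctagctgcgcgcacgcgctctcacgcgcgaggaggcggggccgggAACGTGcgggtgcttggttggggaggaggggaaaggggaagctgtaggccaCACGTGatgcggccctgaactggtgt

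**Figure D4:**
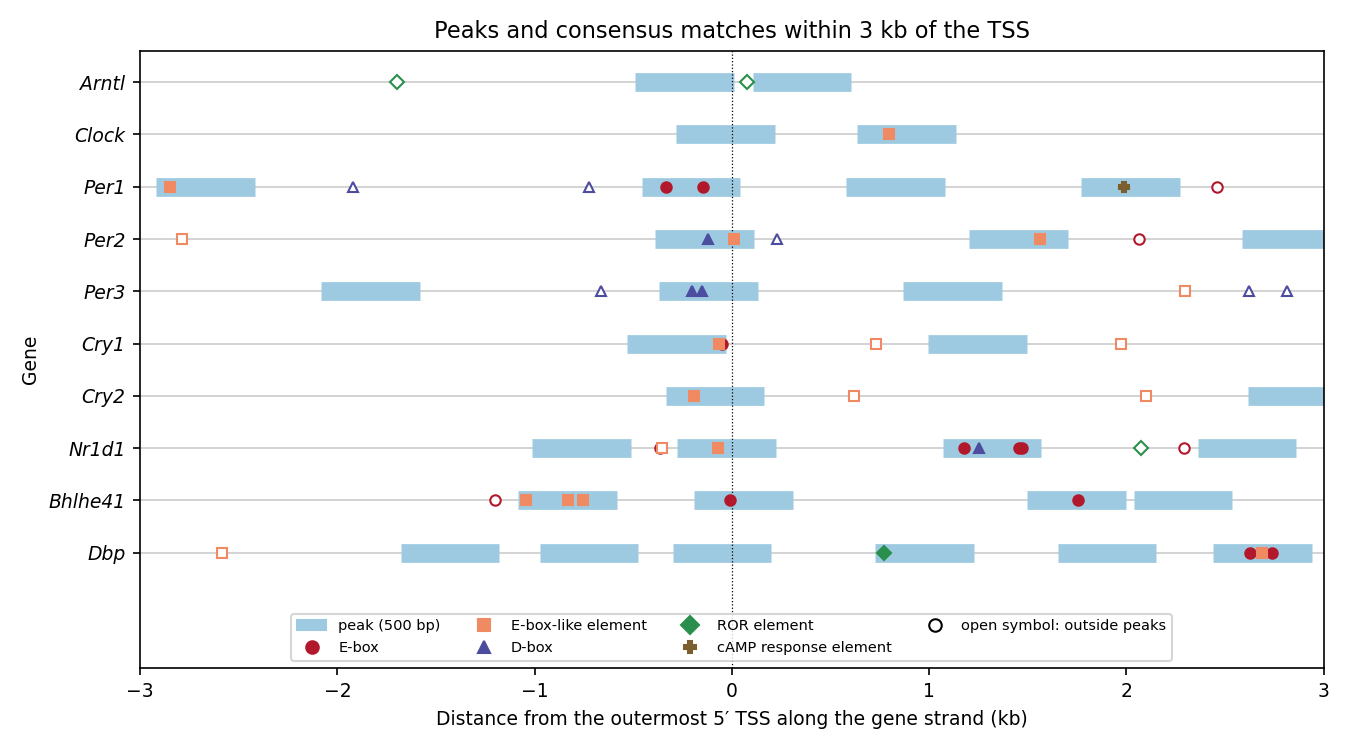
DN peaks (blue bars, 500 bp) and consensus matches within 3 kb of the outermost TSS of each clock gene, in kb along the gene strand; filled symbols lie in peaks and open symbols outside. *Per1*, *Cry1* and *Bhlhe41* have an E-box (red circle) in the peak at the TSS, and *Per2* and *Per3* have D-boxes (triangles) there. The *Arntl* ROR element (diamond) at +78 bp falls in a gap between promoter peaks. So does the pair of an E-box and an E-box-like element upstream of the *Nr1d1* TSS. A further *Arntl* ROR element, at -1697 bp, lies outside peaks, 1203 bp from the nearer one. The *Nr1d1* pair of E-boxes in the intron lies in a peak.

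E-boxes were counted over all 120 peaks. CACGTG was present in 21 peaks (17.5%, 95% exact binomial interval 11.2 to 25.5%), against 9.49% of all DN peaks. Peaks of 1 gene share their surroundings and some gene windows are denser than others, so that the interval covers counting error only. Peaks of clock genes had a median GC content of 54.6% and a CpG ratio of 0.336, against 52% and 0.317 for all DN peaks. The bearing of this difference on the share with a CACGTG was not tested. The shares were also taken by distance from a TSS. Among the 81 peaks of clock genes farther than 1 kb from a TSS, 17 (21%, interval 12.7 to 31.5%) had a CACGTG, against 8.26% of all such peaks. Among the 39 peaks nearer to a TSS, 4 had one (10.3%, interval 2.87 to 24.2%), against 12.4% of all such peaks, and a difference from them was not detectable with 39 peaks. The share was 18.2% in peaks nearest to the clock gene's own TSS (12 of 66, interval 9.76 to 29.6%). In those nearest to another gene's it was 16.7% (9 of 54, interval 7.92 to 29.3%). The latter interval holds the 9.49% of all DN peaks, and the former begins just above it. Outside the gene bodies the share was 19.4% (12 of 62, interval 10.4 to 31.4%), and over them 15.5% (9 of 58, interval 7.35 to 27.4%). The last interval holds the share of all DN peaks.

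Peaks with several E-boxes were counted as well. Of the 120 peaks, 7 (5.83%) held at least 2 CACGTG, against 0.779% of all DN peaks, and 2 (1.67%) held at least 3, against 0.108%. These 2 were the intronic peak of *Nr1d1* and the downstream peak of *Bhlhe41*. Tandem E-boxes have been described as preferred sites of CLOCK and BMAL1, but the pairs counted here were not limited to a described spacing. A pair of CACGTG or CACGTT with starts at most 30 bp apart was found in 3 peaks (2.5%), against 0.38% of all DN peaks, 1 each at *Cry1*, *Nr1d1* and *Bhlhe41*. Between the elements of these pairs lay 13, 9 and 20 bp. The windows of the 10 genes held 8 such pairs in all, of which 3 were in peaks. The closest pairs of the windows, with 6 bp between them at *Per2* and 7 bp at *Nr1d1*, lay outside peaks. The latter was in the gap of 234 bp that could not hold a peak.

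The other elements were rarer. CACGTT was present in 14 peaks of clock genes (11.7%, interval 6.53 to 18.8%), against 8.1% of all DN peaks. D-boxes were present in 7 peaks (5.83%, interval 2.38 to 11.6%), against 2.54%, at *Per2*, *Per3*, *Cry2* and *Nr1d1*. ROR elements were present in 4 peaks (3.33%, interval 0.916 to 8.31%), against 0.972%, at *Arntl*, *Cry1*, *Nr1d1* and *Dbp*. The cAMP response element was present in 3 peaks (2.5%, interval 0.519 to 7.13%), against 1.51%, and those of *Per3* and *Dbp* lay at the promoters of *Vamp3* and *Rpl18*. The intervals of CACGTT, of the D-box, of the ROR element and of the cAMP response element held the share of all peaks, so that a difference was not detectable with 120 peaks. In the 58 peaks over gene bodies, D-boxes were present in 6 (10.3%, interval 3.89 to 21.2%) and ROR elements in 3 (5.17%, interval 1.08 to 14.4%), both with intervals above the shares of all DN peaks, of which not all lie over gene bodies. In the 66 peaks nearest to the clock gene's own TSS, D-boxes were present in 7.58% (interval 2.51 to 16.8%) and ROR elements in 4.55% (interval 0.947 to 12.7%), and both intervals held the shares of all DN peaks. CACGTG was present in 9 of the 58 (15.5%, interval 7.35 to 27.4%), an interval that holds the share of all DN peaks. CAGCTG was in 28 peaks (23.3%, interval 16.1 to 31.9%), against 30.9%.

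**Figure D5:**
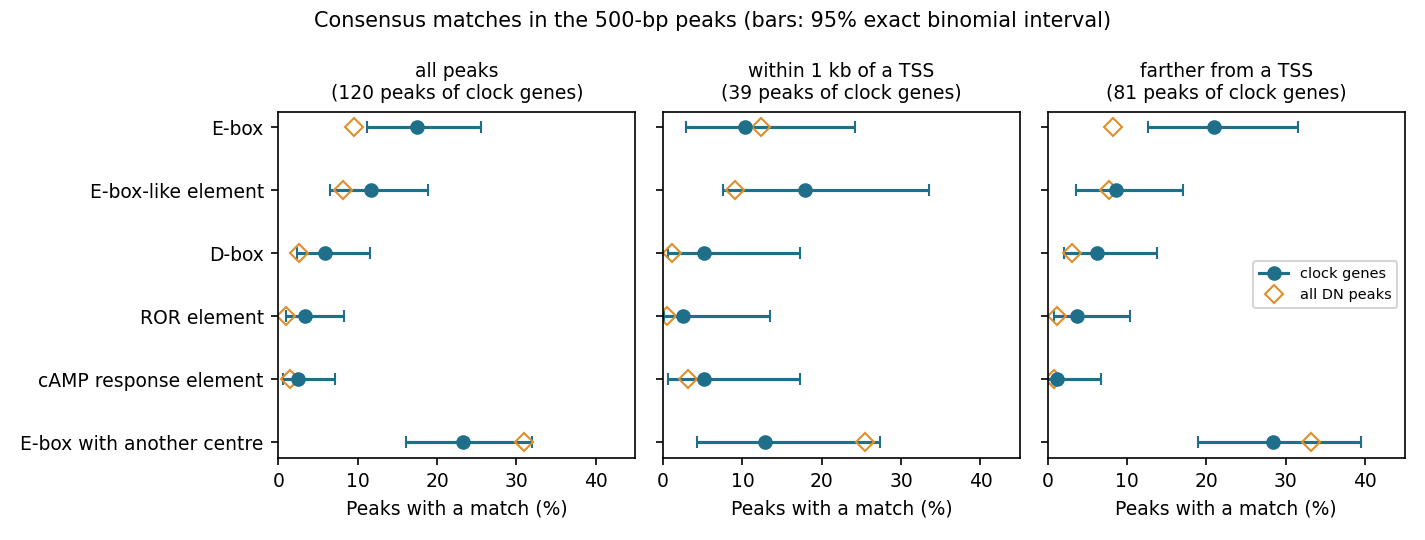
Share of 500-bp peaks with each consensus sequence, for peaks of clock genes (filled circles, with 95% exact binomial intervals) and for all DN peaks (open diamonds), over all peaks, peaks within 1 kb of a TSS and peaks farther away. The interval of the CACGTG E-box lies above the share of all peaks in the left and right panels, with 17.5% against 9.49% and 21% against 8.26%, and that of CAGCTG, the E-box with another centre, holds the share of all peaks in each panel.

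By gene, a CACGTG lay in a peak at 8 of the 10 clock genes, all but *Arntl* and *Clock*, against 28.9% of protein-coding genes. CACGTG or CACGTT lay in a peak at 9, all but *Arntl*, against 41.2%. CAGCTG lay in a peak at 9 as well, all but *Clock*, against 50.9%, and genes with more peaks have more sequence in which any of these can occur. The windows of body and flanks together held 128 CACGTG sequences, of which 30 (23.4%) lay in peaks, while peaks covered 7.45% of the windows. The share in peaks was also above the cover for CACGTT (13.7%, 16 of 117), the D-box (16.4%, 9 of 55), the ROR element (16.1%, 5 of 31) and the cAMP response element (30%, 3 of 10), whereas for CAGCTG 32 of 446 (7.17%) lay in peaks. Over the 19 autosomes and the X chromosome, 2.19% of CACGTG, 1.69% of CACGTT, 0.999% of D-boxes, 0.796% of ROR elements, 6.02% of cAMP response elements and 2.09% of CAGCTG sequences lay in peaks, which cover 1.05% of them. Relative to cover, the share of cAMP response elements was thus higher over all chromosomes than in the windows, and that of CACGTT was similar in both. In the genes with most peaks, the share of CACGTG in peaks and the share of the window in peaks were 28.6% and 18.3% at *Per1*, 33.3% and 18.5% at *Cry2*, 60% and 25.1% at *Nr1d1* and 41.7% and 18.8% at *Dbp*. The former share was the larger in each of these 4 genes. The largest ratio between the shares was that of *Bhlhe41*, with 41.7% and 5.28%. Of the 98 CACGTG outside peaks, 4 lay in gaps under 500 bp between peaks.

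The 17 other clock genes had a lower median than the 10 described. Members and lists were chosen with earlier results of these data known, so the medians cannot test a difference between lists. All 17 had a peak in the body or within 20 kb, as did 76.6% of protein-coding genes, and the median was 4 peaks, against 7.5. *Rora*, which encodes an activator that binds ROR elements, had the most with 23, over a body of 734461 bp, and *Fbxl21* had the fewest with 1. Medians were 6 peaks for 14 immediate early genes and 8 for 9 transcription factors of midbrain DNs. Per kb of body and flanks, the median was 0.102 peaks for the 10 clock genes, 0.0506 for the other clock genes, 0.114 for the immediate early genes, which are shorter, and 0.157 for the transcription factors, so that the order of clock and immediate early genes turned. In the last 2 lists, all genes had a promoter peak, as did 56.9% of protein-coding genes.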

How the data were processed

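Per the study's methods, the authors gated out doublets when nuclei were sorted and mapped single-nucleus ATAC-seq reads to mm10 with Cell Ranger. With ArchR they removed doublets and low-quality nuclei and clustered the rest. They chose the DN cluster by marker genes and called reproducible peaks on pseudobulk replicates. The deposited list gives a chromosome, start and end for 55326 peaks, with no counts; the depth per library was not used. For its later analyses, the paper kept only peaks present in a minimum share of nuclei. Whether this filter had been applied to the deposited list was not given in the sources used here. Tests on the list showed that every peak is 500 bp wide and that none overlap.

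Starts were taken to be counted from 0, and positions are printed with the first base as 1. Peaks were assigned by an overlap of at least 1 bp with the GENCODE M21 gene body extended by 20 kb. Promoter peaks overlapped the 1 kb on either side of the TSS of a basic transcript. Positions are relative to the outermost TSS. Sequence came from GRCm38, the assembly of mm10. Groups came from the labels. All 10 members are named, as are neighbouring genes with the nearest TSS to a member peak, and the other clock gene with the most peaks; the result for 1 other clock gene is not reported here, and *Fbxl21*, with the fewest, was named after its value was seen. Intervals are 95% exact (Clopper-Pearson) binomial intervals and cover counting error only. The members and lists were chosen with earlier results of these data known. Counting and motif search were tested on simulated data. Python 3.11.15, numpy 2.4.6, scipy 1.17.1 and matplotlib 3.10.9 were used.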

Additional observations from a re-analysis of the deposited data

How the results depend on the processing

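The 120 peaks became 58 when only those overlapping gene bodies were counted and 66 when the nearest TSS had to be the clock gene's own. The share with a CACGTG E-box, 17.5%, became 25.8% with CACGTT included (16.8% of all peaks), 10.8% in the central 200 bp of each peak (4.71% of all peaks) and 10.3% within 1 kb of a TSS. The share of protein-coding genes with a promoter peak, 56.9%, was 55.7% with 500 bp on either side of a TSS, 58.4% with 2 kb and 54.2% with the outermost TSS alone, and all 10 clock genes had a promoter peak under each of these. In an alternative added after the data were seen, leaving out the peaks of 1 gene at a time gave E-box shares between 15.6% (without *Nr1d1*) and 19.1% (without *Cry2*). In recounts of single genes over the gene body alone, with other flanks or by nearest TSS, 19 counts moved by over 1.5 times. Counting by peak centre or reading starts as counted from 1 changed the count of none of the 10 clock genes. The median over all genes lies at the border of 2 and 3 peaks, and was 3 with starts read as counted from 1 or beside genes of similar length.

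No paired analysis was possible because the peak list analysed here pools both libraries, and for the same reason no library was left out. Values per library were not used here. No stricter peak threshold was tried, since the list has no scores. A region without a peak is one where none was called at this depth.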
